A study of Homo sapiens with 6 samples.

Results

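In MCF10A, an immortalised but untransformed human mammary epithelial line, RNA was counted at its 3′ ends with and without siRNA against the transcriptional coactivators YAP and TAZ. Described here are 9 genes of amine and aldehyde oxidation out of the 23459 genes in the table: the monoamine oxidases MAOA and MAOB, the aldehyde dehydrogenases ALDH1A3, ALDH1A1, ALDH3A1, ALDH3A2 and ALDH3B1, and the CYP1 monooxygenases CYP1A1 and CYP1B1. They were picked by name, and with the knowledge that MAOA was high after depletion of YAP and TAZ in these same libraries. Their differences between the groups are therefore given as a description, without p-values. All 9 had a row in the table, and 7 passed the low-count filter. ALDH1A1 and CYP1A1 did not.

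Both groups were MCF10A cells, and the description of every library labels them WT. They were kept in the same medium, which contains horse serum, insulin, EGF, cholera toxin and the glucocorticoid hydrocortisone. One group was transfected with 20 nM of a non-targeting control siRNA (siCtrl, n = 3 libraries) and the other with 20 nM siRNA against YAP and TAZ (siYAP/TAZ, n = 3 libraries). The time after transfection is not given in the sources used here. All libraries come from a single cell line, and nothing in the labels ties them to separate cultures, so the p-values below may measure technical spread. In 2 libraries, siCtrl replicate 2 and siYAP/TAZ replicate 2, the title and genotype entry name the other group. The description, which is also the column name, was used, for replicate numbers as well, since those of the titles also differ.

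The libraries held 3175149 to 4317286 counts. YAP1 (log2 difference -0.80, SE 0.12, adjusted p = 0.0138 with edgeR) and WWTR1, which encodes TAZ (-0.69, SE 0.13, adjusted p = 0.0311), did not overlap between the groups and were lower after depletion, the library with conflicting labels in each group included. Left-out libraries kept both log2 differences between -0.84 and -0.62, but YAP1 missed the threshold when siCtrl replicate 3 or siYAP/TAZ replicate 2 or 3 was left out (adjusted p = 0.0606 to 0.112 in edgeR), and WWTR1 when any library except siCtrl replicate 2 was (adjusted p = 0.0602 to 0.176). On the first principal component (48.4% of the variance), siCtrl replicate 2 lay at 7.15, near the siYAP/TAZ libraries (9.77 to 33.7) and far from the other siCtrl libraries (-42.6 and -34.9). Results are therefore also given without it. It was set aside after its values were seen, so calls and p-values without it are no independent support. Of 10 epithelial markers, all passed the filter, with a summed level of 3312 to 3603 CPM (the count over the TMM-scaled library size, times 1e+06) in siCtrl and 2422 to 2605 CPM in siYAP/TAZ. KRT6A and KRT5 had the highest levels in this sum. By fitted difference 7 markers were lower and 3 higher (TP63, CDH1 and ITGB4), and 0 passed in edgeR. At an unadjusted p under 0.05 in edgeR, 3 were lower and 1 higher. With the replicate number added to the fit as a block, 4 were called lower and 1 higher (10.1% of all genes tested were called). The part of the difference in the sum in the results below was not tested. Among the markers of other cell types, COL1A2, COL3A1 and HBB were at 0 in every library. In these bulk libraries, fewer cells of a kind and less RNA per cell cannot be told apart.

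The 9 enzymes act along connected routes. Monoamine oxidases sit on the outer mitochondrial membrane and deaminate serotonin, noradrenaline and dopamine to aldehydes, with release of hydrogen peroxide. Aldehyde dehydrogenases oxidise aldehydes to acids. The ALDH1A enzymes make retinoic acid from retinal, and aldehyde dehydrogenase activity is a widely used mark of mammary progenitor cells. CYP1 enzymes oxidise polycyclic aromatic compounds and oestrogens and are textbook targets of the aryl hydrocarbon receptor.

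MAOA and MAOB lie tail to tail on the X chromosome, with 19792 bases between their 3′ ends. MAOA (Entrez 4128) is on the plus strand at chrX:43514155-43606064 and MAOB (Entrez 4129) on the minus strand at chrX:43625857-43741696 (GRCh37, the build that the submitters name as hg19). No other annotated gene overlaps either of them. The 250 bases before each RefSeq gene start are shown because these are the members that were higher together by the largest fold. They are from RefSeq on GRCh38.p14, MAOA at chrX:43656049-43656298 (plus strand) and MAOB at chrX:43882451-43882700 (minus strand), and capitals mark each GC box, GGGCGG on either strand.
MAOA: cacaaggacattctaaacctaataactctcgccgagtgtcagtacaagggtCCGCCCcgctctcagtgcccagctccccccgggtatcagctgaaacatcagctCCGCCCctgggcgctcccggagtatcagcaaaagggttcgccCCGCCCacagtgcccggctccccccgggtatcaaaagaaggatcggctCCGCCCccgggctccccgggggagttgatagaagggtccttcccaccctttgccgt
MAOB: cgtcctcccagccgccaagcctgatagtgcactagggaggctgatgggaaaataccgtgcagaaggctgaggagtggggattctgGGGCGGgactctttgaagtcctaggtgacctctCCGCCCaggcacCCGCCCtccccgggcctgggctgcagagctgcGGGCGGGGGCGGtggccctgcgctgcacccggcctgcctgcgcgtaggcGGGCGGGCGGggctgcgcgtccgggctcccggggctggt
MAOA has 4 GC boxes in this window and MAOB has 7, some of which overlap each other. Of 27305 promoters of the same length, 42.3% hold at least 1. The GC content is 63.2% and 72.0%, against a median of 58.0% over all promoters. A search on both strands for the TEAD core GGAATG (in 11.9% of all promoters), the AP-1 site TGANTCA (6.60%), the xenobiotic response core GCGTG (31.9%), the forkhead site TGTTTAC (2.98%) and the full palindromic glucocorticoid response element (0.00366%) found 0 matches in either window. Among the other members with a RefSeq promoter entry, GCGTG was found in those of ALDH1A3 (2 matches) and CYP1A1 (1 match). Matches are letters in a window and say nothing about occupancy.

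MAOA, the form that prefers serotonin and noradrenaline, was several-fold higher in siYAP/TAZ than in siCtrl. It had 34, 207 and 50 counts in siCtrl replicates 1, 2 and 3, which is 9.76, 63.9 and 12.6 CPM. In siYAP/TAZ it had 608, 395 and 579 counts, or 138, 131 and 157 CPM. The siYAP/TAZ libraries lay close together and all above every siCtrl library, whereas siCtrl replicate 2 stood well above the other siCtrl libraries. The means were 28.7 ± 30.5 and 142 ± 13.9 CPM (SD, n = 3), and the log2 difference was 2.32 (SE 0.56), a 5.01-fold higher level. Without siCtrl replicate 2 the log2 difference was 3.66 (SE 0.19), so this library alone set much of its size. Between libraries of the same replicate number, the log2 differences were 3.75, 1.03 and 3.59 for replicates 1, 2 and 3.

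MAOB, which prefers phenylethylamine, was close to the limit of detection in siCtrl. It had 2, 3 and 4 counts there and 30, 13 and 22 in siYAP/TAZ, that is 0.574, 0.926 and 1.01 CPM against 6.80, 4.30 and 5.98 CPM. The groups did not overlap. It passed the filter only through its siYAP/TAZ libraries, so a difference was built into its being tested. Over the summed counts, 9 against 65, the level was 6.95-fold higher, with an exact 95% interval of 3.45 to 15.9 that covers counting error only. The sources used here name no molecular identifiers, so reads may repeat molecules. The log2 difference was 2.73 (SE 0.43), and 2.80 without siCtrl replicate 2. Unlike MAOA, MAOB was not raised in siCtrl replicate 2. In each library MAOA took 92.6% to 98.6% of the counts of the pair, so nearly all counts of the pair were those of MAOA in both groups.

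**Figure D1:**
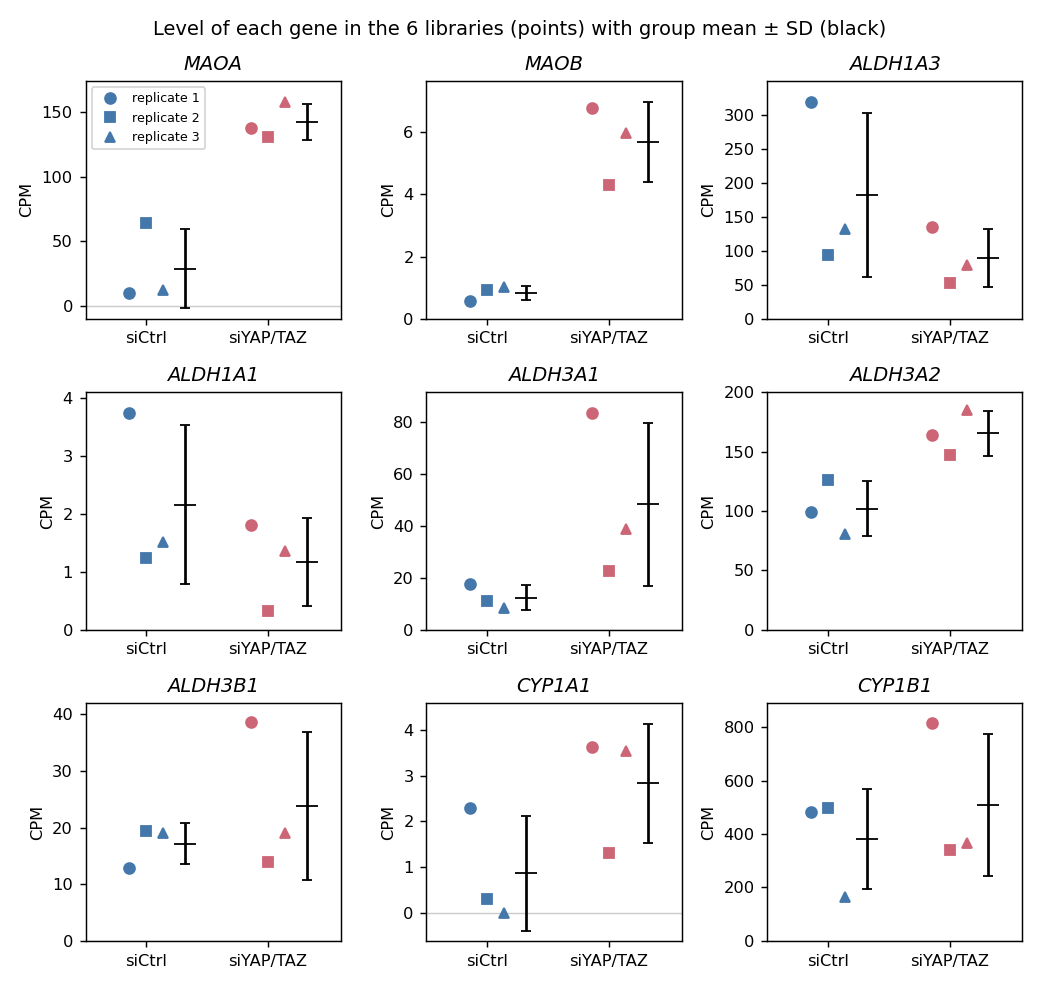
Level of the 9 genes in CPM, 1 panel per gene with its own axis. Points are libraries, marker shape gives the replicate number, and the black bar is the group mean ± SD (n = 3). MAOA lay between 131 and 157 CPM in siYAP/TAZ and at 9.76, 63.9 and 12.6 CPM in siCtrl; ALDH1A3 was the tested member with the lower siYAP/TAZ mean, and its groups overlapped.

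ALDH3A1 and ALDH3A2, neighbours on chromosome 17, were both higher in siYAP/TAZ. ALDH3A1 (Entrez 218, chr17:19641297-19652256, minus strand) encodes a cytosolic enzyme known as a corneal crystallin and as a gene induced by xenobiotics. It had 61, 36 and 34 counts in siCtrl (17.5, 11.1 and 8.54 CPM) and 367, 68 and 143 in siYAP/TAZ (83.2, 22.5 and 38.9 CPM). The groups did not overlap, but siYAP/TAZ replicate 1 was far above the other siYAP/TAZ libraries. The means were 12.4 ± 4.62 and 48.2 ± 31.4 CPM (SD, n = 3), and the log2 difference of 1.98 (SE 0.46) was 1.32 without siYAP/TAZ replicate 1. Within replicate numbers 1, 2 and 3 the log2 difference was 2.21, 0.98 and 2.12. An unnamed long non-coding RNA overlaps the gene on the other strand.

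ALDH3A2 (Entrez 224, chr17:19551449-19589073, plus strand) encodes the fatty aldehyde dehydrogenase of the endoplasmic reticulum, which is deficient in Sjögren-Larsson syndrome. It had 345, 410 and 320 counts in siCtrl, against 724, 445 and 681 in siYAP/TAZ, or 99.1, 127 and 80.4 CPM against 164, 147 and 185 CPM. The groups did not overlap, but the highest siCtrl library (127 CPM) lay near the lowest siYAP/TAZ library (147 CPM), both of replicate 2. Its log2 difference was 0.70 (SE 0.18), with 0.55 to 0.89 when each library was left out in turn. Within replicate numbers 1, 2 and 3 it was 0.72, 0.22 and 1.20, smallest in replicate 2 as for MAOA. The 3′ end of ALDH3A2 overlaps SLC47A2 on the other strand, with 74, 57 and 72 counts in siCtrl, against 155, 79 and 126 in siYAP/TAZ. Whether strand was used in the counting is not given in the sources used here, so reads of the overlap are uncertain.

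ALDH3B1 (Entrez 221, chr11:67776048-67796749, plus strand), which acts on lipid aldehydes at membranes, gave no clear difference. It had 45, 63 and 76 counts in siCtrl, against 170, 42 and 70 in siYAP/TAZ, or 12.9, 19.4 and 19.1 CPM against 38.5, 13.9 and 19.0 CPM. The groups overlapped, and a single library, siYAP/TAZ replicate 1, was high. The log2 difference was 0.49 (SE 0.36), and -0.054 without that library. Its paralog ALDH3B2 had at most 2 counts in a library.

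ALDH1A3 (Entrez 220, chr15:101417919-101456831, plus strand), the main retinoic acid-forming enzyme of many breast cancer lines, was the only tested member with a lower fitted level in siYAP/TAZ. It had 1111, 303 and 527 counts in siCtrl (319, 93.5 and 132 CPM) and 596, 158 and 292 in siYAP/TAZ (135, 52.2 and 79.4 CPM). The groups overlapped, since siYAP/TAZ replicate 1 was higher than siCtrl replicates 2 and 3. Within each replicate number the siYAP/TAZ library was nevertheless the lower one, with log2 differences of -1.24, -0.83 and -0.73. The difference over all libraries was -1.02 (SE 0.45). It was -0.34 when siCtrl replicate 1 was left out and -1.46 when siYAP/TAZ replicate 1 was. An antisense RNA, ALDH1A3-AS1, is annotated across the 3′ end of ALDH1A3, and its reads cannot be told apart without strand.

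ALDH1A1 (Entrez 216, chr9:75515587-75695358, minus strand), the related retinal dehydrogenase, was barely detected. It had 13, 4 and 6 counts in siCtrl, against 8, 1 and 5 in siYAP/TAZ. Over the summed counts, 23 against 14, the ratio of siYAP/TAZ to siCtrl was 0.586, with an exact 95% interval of 0.279 to 1.19, so no difference could be seen with so few reads.

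Within the aldehyde dehydrogenase counts, the share of ALDH1A3 was lower and that of ALDH3A1 higher in siYAP/TAZ. Of the counts of the 5 ALDH members, ALDH1A3 took 70.5%, 37.1% and 54.7% in siCtrl and 32.0%, 22.1% and 24.5% in siYAP/TAZ. ALDH3A1 took 3.53% to 4.41% in siCtrl and 9.52% to 19.7% in siYAP/TAZ. Neither share overlapped between the groups. ALDH3A2 took the largest share in every siYAP/TAZ library, 38.8%, 62.3% and 57.2%, and also in siCtrl replicate 2, at 50.2%.

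CYP1B1 (Entrez 1545, chr2:38294116-38337044, minus strand), which hydroxylates oestradiol, had the most counts of the members in either group. It had 1683, 1610 and 657 counts in siCtrl (483, 497 and 165 CPM) and 3595, 1034 and 1353 in siYAP/TAZ (815, 342 and 368 CPM). The groups overlapped and each held 1 library far from the other two. The log2 difference was 0.42 (SE 0.43), 0.053 with siCtrl replicate 3 left out and -0.10 with siYAP/TAZ replicate 1 left out, so no direction held. Within replicate numbers 1, 2 and 3 it was 0.75, -0.54 and 1.15. CYP1B1-AS1 overlaps it on the other strand but not at its 3′ end, with 257, 337 and 146 counts in siCtrl, against 701, 335 and 313 in siYAP/TAZ. At the 3′ end, RMDN2 overlaps it on the other strand, with 43, 17 and 23 counts in siCtrl, against 78, 26 and 51 in siYAP/TAZ. RMDN2-AS1 overlaps that end on the same strand, with 32, 8 and 15 counts in siCtrl, against 37, 21 and 36 in siYAP/TAZ. The reads of these genes are uncertain.

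CYP1A1 (Entrez 1543, chr15:75011883-75017877, minus strand), the most inducible of the aryl hydrocarbon receptor targets, had 8, 1 and 0 counts in siCtrl, against 16, 4 and 13 in siYAP/TAZ. The count of 0 in siCtrl replicate 3 allows up to 3 counts, or 0.754 CPM. The summed counts, 9 against 33, give a ratio of 3.53 with an exact 95% interval of 1.65 to 8.39 for counting error. The groups overlapped, because siCtrl replicate 1 was above siYAP/TAZ replicate 2 at 2.30 against 1.32 CPM. CYP1B1 took at least 99.0% of the counts of the pair in every library.

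**Figure D2:**
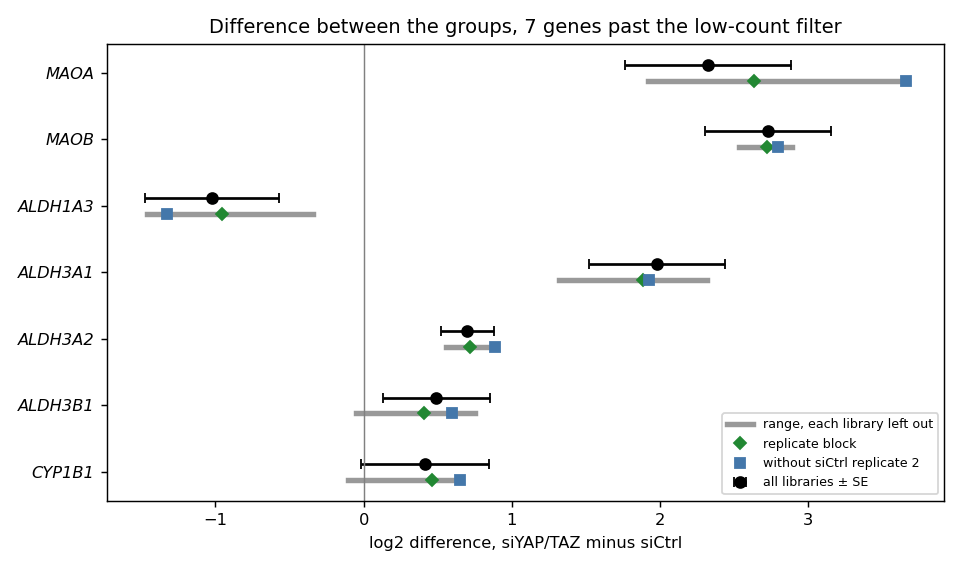
Log2 difference, siYAP/TAZ minus siCtrl, for the 7 genes past the low-count filter. Black points are the fit to all libraries ± SE, grey bars the range when each library is left out, green diamonds the fit with the replicate number as a block and blue squares the fit without siCtrl replicate 2. MAOA moved from 2.32 to 3.66 without siCtrl replicate 2, and the grey bars of ALDH3B1 and CYP1B1 cross 0.

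edgeR's quasi-likelihood test, at an adjusted p of 0.05, called 1.96% of all genes, 0.743% higher and 1.22% lower in siYAP/TAZ. Of the 7 tested members it called 1, MAOB, as higher. Other fits to the same 6 libraries called more: DESeq2 called MAOB, ALDH3A1 and ALDH3A2 (4.35% of all genes), and edgeR without the low-count filter called these and MAOA (2.90% of all genes). With the replicate number as a block, 10.1% of all genes passed (4.66% higher) and 5 members did, MAOA, MAOB, ALDH3A1 and ALDH3A2 as higher and ALDH1A3 as lower. The same 5 passed without siCtrl replicate 2, where 12.3% of all genes did (6.08% higher). The call for MAOB was lost when replicate 1 or 3 of siCtrl, or replicate 1 or 3 of siYAP/TAZ, was left out. In 4 of the 7 the groups did not overlap, with siYAP/TAZ higher, against 11.0% of all genes tested. These counts describe genes chosen with this contrast known, and nothing is read from them. The median log2 difference was 0.70 over the 7 members and -0.00093 over all genes tested.

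How the members differ between replicate numbers was not used in choosing them, and could be tested. Deviations from the group means went together in libraries of the same number, with correlations across genes of 0.416, 0.345 and 0.129 for replicates 1, 2 and 3. Between libraries of different numbers the correlations were -0.365 to 0.0454, so the pairing is weakest for replicate 3. In the blocked fit 1.81% of all genes differed between the numbers at an adjusted p of 0.05. Of the 7 tested members, 1 did so: ALDH1A3 (edgeR adjusted p = 0.00322) was highest in replicate 1 and lowest in replicate 2 in both groups. ALDH3A1 (adjusted p = 0.0536) and CYP1B1 (0.104) did not pass, and were highest in replicate 1 among the siYAP/TAZ libraries. MAOA (0.402), ALDH3B1 (0.684), MAOB (0.865) and ALDH3A2 (0.893) did not pass either. NQO1, a quinone reductase induced by oxidants and by the aryl hydrocarbon receptor, was highest in replicate 1 in both groups, at 269 CPM (siCtrl) and 343 CPM (siYAP/TAZ), and differed between the numbers (adjusted p = 0.0318). What the replicate numbers stand for is not given in the labels.

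**Figure D3:**
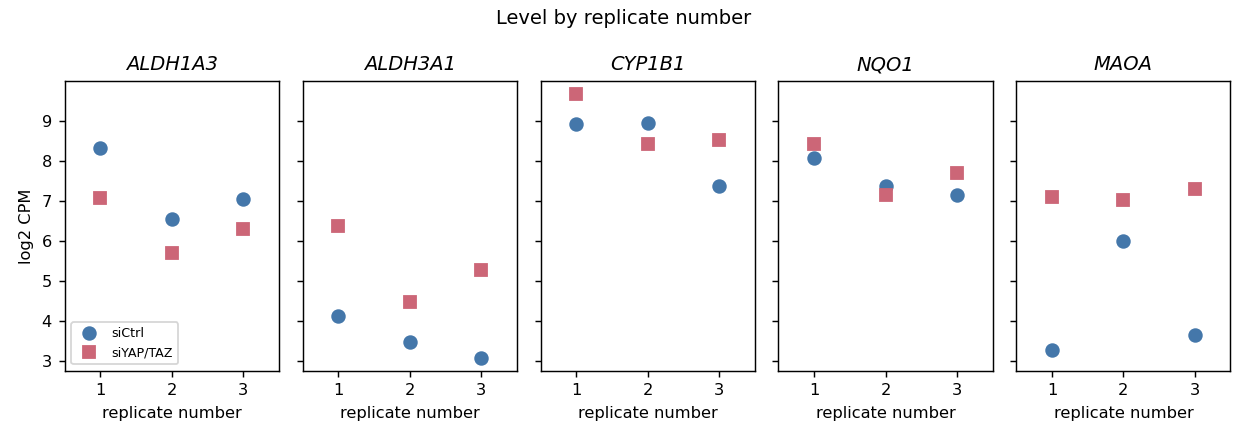
Log2 CPM of 4 members and of NQO1 by replicate number, with siCtrl as circles and siYAP/TAZ as squares (1 library per point). ALDH1A3 was highest in replicate 1 and lowest in replicate 2 in both groups, at 319 and 93.5 CPM (siCtrl) and at 135 and 52.2 CPM (siYAP/TAZ); for MAOA the siCtrl libraries lay far apart, from 9.76 to 63.9 CPM, and the siYAP/TAZ libraries together.

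The genes with the pattern most like that of MAOA over the 6 libraries included VNN3P, FBXO32, GBP2 and PIK3IP1, which are 4 of the 5 nearest out of 11385 genes with a mean of at least 5 CPM. Likeness was the root mean square difference of the log2 CPM values centred on each gene's mean, which was 0.304 for VNN3P, a vanin family pseudogene, and 0.475 for PIK3IP1, an inhibitor of PI3 kinase. FBXO32, a ubiquitin ligase subunit that is a classic FOXO target, had 47, 481 and 94 counts in siCtrl, against 587, 665 and 981 in siYAP/TAZ. GBP2, an interferon-induced GTPase, had 37, 133 and 30 counts in siCtrl, against 277, 192 and 307 in siYAP/TAZ. Each of the 4 was higher in siCtrl replicate 2 than in the other siCtrl libraries, as MAOA was. Picking genes by likeness to MAOA over these libraries favours this in advance, so nothing further is read from it. Of the 5 other members that reached this level, the nearest was ALDH3A1 at rank 341 of 11384 and the farthest ALDH1A3 at rank 11296. MAOB, ALDH1A1 and CYP1A1 were below it. When a mean of 20 CPM was asked for, 2 of the 5 remained.

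**Figure D4:**
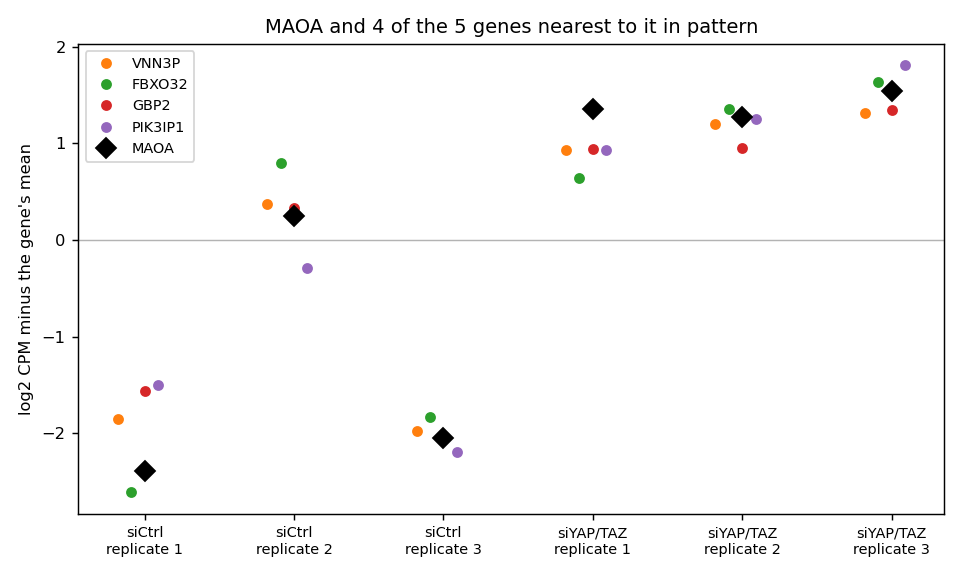
Log2 CPM minus the gene's own mean over the 6 libraries, for MAOA (black diamonds) and 4 of the 5 genes nearest to it (coloured points, set side by side for legibility). In siCtrl replicate 2, MAOA lay 0.25 above its mean, against -2.39 and -2.04 in the other siCtrl libraries and 1.28 to 1.55 in siYAP/TAZ.

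Genes that work beside the members were counted from lists written from general knowledge. Over all 12510 genes tested in edgeR, 2211 had an unadjusted p under 0.05. In the glucocorticoid-responsive list, 0 of 11 tested genes passed in edgeR with all libraries, while 4 (higher) and 1 (lower) had an unadjusted p under 0.05. DESeq2 called 1 higher and 1 lower. The median log2 difference of the list was 0.56, against -0.00093 over all genes tested. With the replicate block 7 were called higher and 1 lower, MT2A, a metallothionein. Without siCtrl replicate 2, a library set aside after its values were seen, 8 were called higher and 0 lower. MT2A was still lower in that fit (log2 difference -0.75, SE 0.23) but did not pass. TSC22D3, the glucocorticoid-induced leucine zipper, had 31.3, 306 and 52.5 CPM in siCtrl, against 197, 275 and 380 CPM in siYAP/TAZ. Like MAOA it was high in siCtrl replicate 2, but its groups overlapped. Its log2 difference was 1.13 (SE 0.68, adjusted p = 0.425 in edgeR). The log2 difference of TSC22D3 was 1.74 with the block (SE 0.48, adjusted p = 0.0443 in edgeR) and 2.75 without siCtrl replicate 2 (SE 0.30). Leaving out the siCtrl library in which TSC22D3 was high raises the difference by construction, so no p-value is given for that fit. GLUL, glutamine synthetase, chosen after its values were seen, ranked 12 of 11384 in likeness to MAOA and TSC22D3 ranked 15. FKBP5, a cochaperone of steroid receptors, had a log2 difference of 0.59 (SE 0.22), for which the adjusted p was 0.207 in edgeR and 0.0201 with the block. NR3C1, the glucocorticoid receptor, had a log2 difference of 0.23 (SE 0.13, adjusted p = 0.406 in edgeR).

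The list of transcription regulators that are reported for MAOA in the literature does not separate activators from repressors. Of 8 tested, 0 passed in edgeR, with 1 higher at an unadjusted p under 0.05. That gene was FOXO1, chosen after its values were seen, with 130, 318 and 171 CPM in siCtrl, against 333, 408 and 441 CPM in siYAP/TAZ. Its log2 difference was 0.93 (SE 0.29), and its adjusted p was 0.139 in edgeR and 0.00672 with the block, and DESeq2 also called it. KLF11, a Krüppel-like factor that binds GC boxes of the MAO promoters, had 0.35 (SE 0.37, adjusted p = 0.671 in edgeR).

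For the other aldehyde dehydrogenases, 0 of 9 tested genes passed in edgeR and 0 in DESeq2, with 1 lower at an unadjusted p under 0.05. Their median log2 difference was 0.0051. Without siCtrl replicate 2, ALDH5A1 (adjusted p = 0.0365 in edgeR) and ALDH6A1 (0.0286), chosen after their values were seen, were higher. Both had their highest siCtrl level in the library left out, at 21.9 and 18.2 CPM, so leaving it out favours these calls. ALDH9A1, which oxidises aminoaldehydes, had 85.6 ± 10.5 and 85.8 ± 2.83 CPM (SD, n = 3), an edgeR adjusted p of 0.991 and a direction that turned with the scaling. ALDH2, the mitochondrial enzyme for acetaldehyde, was low, with 3 to 5 counts per library, and was not tested.

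Of the 17 genes of amine oxidation and monoamine handling, 12 stayed under 10 counts in every library and 4 were tested. None passed in edgeR or DESeq2, and 0 had an unadjusted p under 0.05 in edgeR or in DESeq2, which tested 5. TH, which makes catecholamine precursors, had 0 counts in every library.

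Among retinoid genes, RARA, a retinoic acid receptor, was the 1 of 12 tested that passed in edgeR, with 1 lower and 0 higher. It fell from 434 ± 14.4 to 241 ± 30.1 CPM (SD, n = 3; log2 difference -0.85, SE 0.14, adjusted p = 0.0179), and lay lower in 3 of 3 siYAP/TAZ libraries. The adjusted p was 0.0567 without siCtrl replicate 1, 0.115 without siCtrl replicate 3, 0.0843 with siYAP/TAZ replicate 2 left out and 0.133 with siYAP/TAZ replicate 3 left out. RXRA, chosen after its values were seen, was higher, with a log2 difference of 0.59 (SE 0.16). Its adjusted p was 0.104 in edgeR and 0.0282 with the block. RARG had 0.0069 (SE 0.21, adjusted p = 0.992 in edgeR), with a sign that turned with the scaling, and DHRS3, which reduces retinal, had 0.35 (SE 0.36, adjusted p = 0.656 in edgeR). The carrier protein gene CRABP2 had at most 3 counts in a library.

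Of the aryl hydrocarbon receptor list, 0 of 9 tested genes passed in edgeR, while 1 (higher) and 2 (lower) had an unadjusted p under 0.05, and DESeq2 called 1 higher and 1 lower. AHR, the receptor itself, had 33.4 ± 4.91 and 34.6 ± 3.20 CPM (SD, n = 3), and an adjusted p of 0.900 in edgeR. Its partner ARNT had a log2 difference of -0.18 (SE 0.23, adjusted p = 0.731 in edgeR), which was 0.14 without siCtrl replicate 2. TIPARP, a target gene, had -0.26 (SE 0.20, adjusted p = 0.552 in edgeR), and NQO1 had 0.27 (SE 0.32, adjusted p = 0.713 in edgeR), which was -0.13 without siYAP/TAZ replicate 1. UGT1A6, a glucuronosyltransferase chosen after its values were seen, had 17, 12 and 10 counts in siCtrl, against 150, 17 and 26 in siYAP/TAZ, with siYAP/TAZ replicate 1 highest as for ALDH3A1, ALDH3B1 and CYP1B1. It passed with the block (adjusted p = 0.0150 in edgeR). UGT1A genes share 3′ exons, so its counts are uncertain.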

How the data were processed

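The authors deposited raw counts, 1 row per Entrez gene, for 6 QuantSeq 3′ mRNA-Seq libraries, which count the 3′ ends of polyadenylated RNA. The submitters' processing notes name cutadapt 4.2, Bowtie2 2.3.5.1 and hg19; the annotation and the use of strand in counting are not given in the sources used here. Symbols came from RefSeq (GRCh38.p14, names and promoters only; 23308 of 23459 IDs matched, and 7 members had a promoter entry, ALDH3A1 and CYP1B1 not). Coordinates are from GENCODE on GRCh37.

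Counts were tested with edgeR 4.0.16 (R 4.3.3): default low-count filter (12510 genes), TMM scaling, quasi-likelihood F test with a term for group alone and p-values adjusted by Benjamini-Hochberg over the 12510 genes, at 0.05. SE are from the F statistic. CPM use TMM-scaled library sizes. A count of 0 allows up to 3 counts, 0.680 to 0.992 CPM by library, for counting error only. In simulated counts for this comparison (12367 genes tested), 67.4% of genes changed 2-fold and 96.9% of those changed 4-fold were recovered. The simulation gave genes of like level the same dispersion and held no replicate-number effect and no outlying library. Recovery in the real libraries may therefore be lower. Chi-square per degree of freedom between replicates was 5.37 to 17.4, so each library was counted separately.

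Replicate numbers (from the description field) were taken to pair the libraries, since same-numbered libraries correlated above 0.1 in each of 3 pairs. This was read from the same counts, so the block and the test between replicate numbers depend on it and do not support it. The genes and lists were chosen with earlier results of these data known. Named were all members, the targeted genes, up to 4 genes per list past the threshold, a fixed set of 14 genes, the 5 genes most like MAOA, and overlapping genes; a few of these are not reported here. Alternatives were other filters, scalings and dispersion estimates, DESeq2 1.42.0, the block, the groups of the titles, and libraries left out.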

Additional observations from a re-analysis of the deposited data

How the results depend on the processing

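The number of genes past the threshold was 245 in edgeR with all libraries. It was 556 without the low-count filter, 578 with DESeq2, 1263 with the replicate block, 1183 without both libraries whose labels conflict, and 16 to 1579 when each library was left out, lowest without siCtrl replicate 3 and highest without siCtrl replicate 2. With the groups of the titles it was 0, with 464 at an unadjusted p under 0.05. The genes of the pathway lists that passed, 1 with all libraries, numbered 5, 6, 13 and 12 in the same order and 0 to 15 with a library left out. They numbered 0 with the groups of the titles, with 1 at an unadjusted p under 0.05. The log2 difference of MAOA was 1.25 with the groups of the titles, 3.72 without both conflicting libraries, and 1.92 to 3.66 when each library was left out. MAOB was 1.31 with the groups of the titles and was not tested at a mean of 50 counts. The sign of the 7 members' differences held in all but 2 of 104 recomputed values, those of ALDH3B1 and CYP1B1 without siYAP/TAZ replicate 1. The 5 genes most like MAOA stayed with library size alone and 2 stayed at 20 CPM.

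Small differences changed sign. ALDH9A1 was -0.010 with library size alone, -0.0017 with DESeq2 and between -0.072 and 0.10 with a library left out. RARG was -0.012 and -0.00022 under these settings, -0.038 with the groups of the titles, -0.017 without both conflicting libraries, and -0.13 to 0.12 with a library left out. ARNT was 0.32 with the groups of the titles, 0.11 without both conflicting libraries, and -0.36 to 0.14 with a library left out. AHR ranged from -0.0056 to 0.18 and NQO1 from -0.13 to 0.59 with a library left out. The cause was not tested. YAP1, WWTR1 and RARA lost their call in 4, 6 and 5 of 15 alternatives. At 3175149 to 4317286 counts a library, MAOB, ALDH1A1 and CYP1A1 rest on few reads.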

Other observations

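Among the markers of other cell types that did reach the filter, PDGFRA, a receptor of mesenchymal cells, was well detected in both groups at 161 ± 8.46 and 167 ± 14.5 CPM (SD, n = 3). FAP, a protease of activated fibroblasts, had 67, 60 and 222 counts in siCtrl, against 24, 10 and 48 in siYAP/TAZ, and its log2 difference was -2.09 (SE 0.55), where the adjusted p was 0.0875 in edgeR and 0.000543 with the replicate block. It was highest in replicate 3 in both groups and differed between the replicate numbers (adjusted p = 0.0155 in edgeR). PECAM1, an endothelial adhesion molecule, had 6, 4 and 4 counts in siCtrl, against 14, 29 and 18 in siYAP/TAZ. It passed the filter only through its siYAP/TAZ libraries, so a difference was built into its being tested and no p-value is given. CEBPD, a transcription factor of the glucocorticoid-responsive list, had 164, 496 and 193 CPM in siCtrl, against 238, 507 and 371 CPM in siYAP/TAZ. It was highest in replicate 2 and lowest in replicate 1 in both groups, the reverse of ALDH1A3, and differed between the numbers (adjusted p = 0.0150 in edgeR). These 4 genes were chosen after their values were seen.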
